A study of Homo sapiens with 20 samples.

Results

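A set of 10 genes of the epithelial-mesenchymal transition (EMT) was examined for N6-methyladenosine (m6A) peaks: the mesenchymal transcription factors SNAI1, SNAI2, ZEB1, ZEB2, TWIST1 and TWIST2, the epithelial transcription factors GRHL2, ELF3 and OVOL1, and VIM, the gene of the intermediate filament protein vimentin. A peak belonged to a gene when its summit, the base of highest pull-down signal, lay in an exon of that gene on hg38. Of the 10 genes, 6 had at least 1 exonic peak in any library. They held 119 of 173873 exonic peaks, in 20 of the 43676 regions obtained when the peaks of all libraries are merged. No library had an exonic peak in TWIST1, TWIST2, GRHL2 or OVOL1.

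The peaks came from methylated RNA immunoprecipitation sequencing (MeRIP-seq), in which fragmented RNA is pulled down with an anti-m6A antibody and sequenced beside the RNA before pull-down (input). Both lines are wild-type human bladder cancer cells collected at day 3 of growth, T24 being sensitive to cisplatin and T24R2 a resistant line obtained from T24 by stepwise exposure to cisplatin and kept in the drug. Each line had 5 pull-down libraries with a peak list each, T24R2 is 1 derived line, and the labels do not say whether replicates were separate cultures, so a p-value below measures only the spread between these libraries. The lists held 17203 to 22901 peaks in T24 and 22671 to 33120 in T24R2, with no read counts, so the depth is unknown. T24R2 replicate 5 had the longest list, 33120 peaks against 25603 in the next, and leaving it out changed none of the line-specific calls of the set.

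EMT is the process in which epithelial cells lose cell-cell contacts and gain motile, mesenchymal traits. SNAI1, SNAI2, ZEB1, ZEB2 and the TWIST factors repress epithelial genes such as CDH1, which encodes E-cadherin, while GRHL2 and OVOL1 hold ZEB1 down and ELF3 drives genes of epithelial differentiation. m6A is placed on RNA by the METTL3 and METTL14 methyltransferase, mostly at adenosines within the DRACH motif (any base but C, then a purine, then AC, then any base but G), often in long internal exons and near stop codons, and it affects the decay, splicing and translation of the transcript.

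The reference sequence nearest to the median summit of the recurrent regions is shown first, because these are regions at which the lines were alike or differed. Each is 25 bases of hg38, written 5′ to 3′ on the strand of the gene, with the DRACH motif nearest to the median summit in capitals. A motif in such a window is a description, and no base was measured singly. For the ELF3 3′UTR the summits spread from 237 to 845 nt after the stop codon, and the printed motif lies 328 nt after it. The strongest summits of T24 replicates 1, 2 and 4 lay 264, 261 and 237 nt after it, so that motif does not mark them.

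SNAI1 3′UTR: cccactcaggGGACCccactcccct
ELF3 CDS, exon 7: atggttttcgTGACTgcaagaaggg
ELF3 3′UTR: gcagacacctGGACTgagccaagga
ZEB1 CDS, exon 2: taccagaggaTGACCtgccaacaga
ZEB1 CDS, exon 7: gttgtgttacAGACTcagaaccagt
ZEB1 CDS, exon 9: agagagagttTGACAagggaagagg
ZEB2 CDS, exon 8: ctcccaacagTAACCctcccacaaa
ZEB2 CDS, exon 10: gaagctgggcAGACAggatggcgac

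The SNAI1 and ELF3 3′UTR sites (chr20:49988416-49988440 and chr1:202015639-202015663) and the ELF3 exon 7 site (chr1:202013182-202013206), all on the plus strand, lie in regions called in T24 libraries and in no T24R2 library. The sites of ZEB1 exon 7 (chr10:31521677-31521701, plus strand), ZEB1 exon 9 (chr10:31526962-31526986, plus strand), ZEB2 exon 8 (chr2:144399016-144399040, minus strand) and ZEB2 exon 10 (chr2:144389625-144389649, minus strand) lie in regions called in all 10 libraries. The ZEB1 exon 2 site (chr10:31461145-31461169, plus strand) lies in a region called in 5 T24 and 2 T24R2 libraries. The start-codon region of VIM had no DRACH match on the sense strand within 50 nt of its median summit.

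The epithelial factor ELF3 carried exonic peaks in T24 alone, SNAI1 carried them in 4 T24 libraries and no T24R2 library, and SNAI2, ZEB1 and ZEB2 carried them in every library of both lines. ELF3 had 3, 4, 4, 3 and 3 exonic peaks in T24 replicates 1 to 5 and 0 in each of the 5 T24R2 libraries (two-sided Fisher's exact p = 0.00794, adjusted p = 0.190 by Benjamini-Hochberg over 13976 genes). Across the series 1.47% of genes with an exonic peak showed the same pattern of all T24 and no T24R2 libraries, and here it was 1 of the 6 genes with an exonic peak, while 0 of the 6 showed the reverse pattern, which 2.71% had. SNAI1 had 1, 1, 1, 2 and 0 peaks in T24 and 0 in every T24R2 library (Fisher's exact p = 0.0476, adjusted p = 0.533). An unadjusted p under 0.05 with more T24 libraries was thus found for 2 of these 6 genes and for 2.49% of all genes with an exonic peak. An adjusted p under 0.05 was reached by 0.0% of genes. A peak needs both the transcript and its methylation, so less RNA and less m6A per transcript cannot be told apart here, and an absent peak is not an absent transcript.

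**Figure D1:**
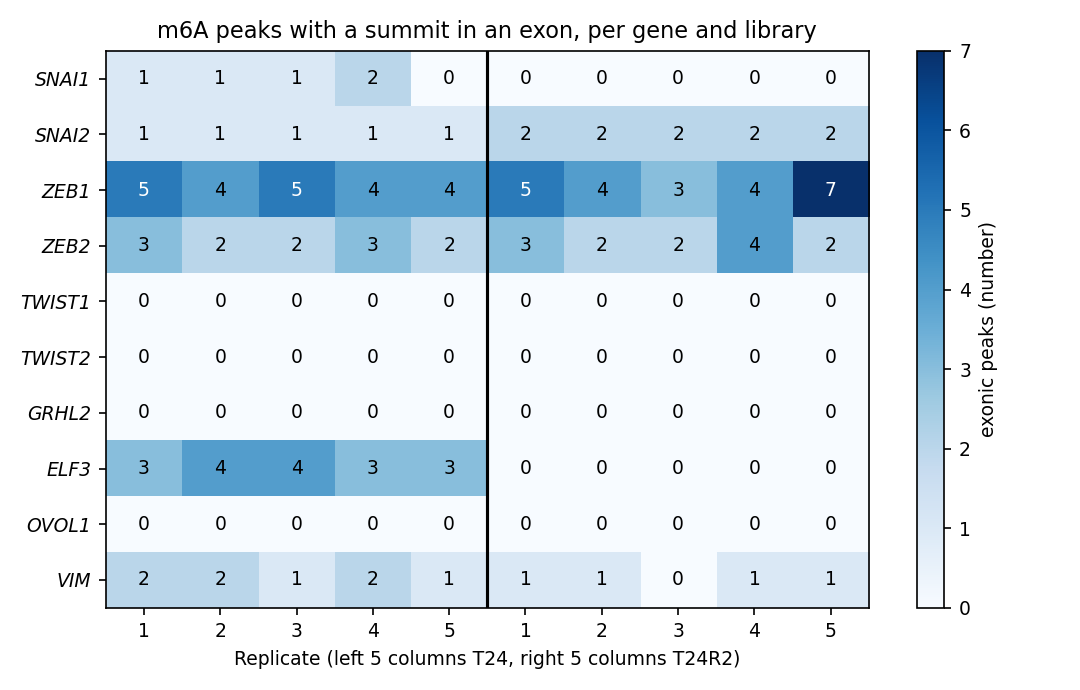
Number of m6A peaks with an exonic summit for each of the 10 genes (vertical axis) in each of the 10 libraries (horizontal axis, T24 to the left of the black line and T24R2 to the right). ELF3 has 3 or 4 peaks in each T24 library and 0 in T24R2, SNAI2 has 1 in each T24 and 2 in each T24R2 library, and TWIST1, TWIST2, GRHL2 and OVOL1 have 0 throughout.

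The 10 genes together had 15, 14, 14, 15 and 11 exonic peaks in T24 replicates 1 to 5, and 11, 9, 7, 11 and 12 in T24R2. Per 10000 peaks of the list this was 5.32 to 8.14 in T24 and 2.94 to 4.59 in T24R2. Most T24R2 lists were longer, which lowers this ratio, and how often other genes of the series show such a gap was not examined. Most of the gap in number was ELF3. Leaving that gene out, the other genes had 8 to 12 peaks in a T24 library and 7 to 12 in a T24R2 library.

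Region by region, 3 of the 20 regions were called in all 5 T24 and no T24R2 libraries, and 1 in all 5 T24R2 and no T24 libraries. In the series 1.05% and 3.02% of regions, respectively, had these patterns, and among regions with a summit in an exon of a protein-coding gene 0.953% and 2.3% did. The T24-only regions were 2 of ELF3 and 1 of VIM, and the T24R2-only region was the 3′UTR region of SNAI2. Each had a two-sided Fisher's exact p of 0.00794, the smallest that 5 against 5 libraries allow, and an adjusted p of 0.195 over all regions, so that 0.0% of regions passed 0.05 after adjustment. The SNAI1 3′UTR region, called in 4 T24 libraries and none of T24R2, was the only other one of the 20 with an unadjusted p under 0.05. In the series 2.09% of regions had an unadjusted p under 0.05 with more T24 calls and 7.11% with more T24R2 calls.

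ELF3, an ETS family transcription factor on the plus strand of chromosome 1 (hg38, 202007945 to 202017183, ENSG00000163435.16), held 4 regions. The 3′UTR region (202015113 to 202016568) had its median summit 352 nt after the stop codon of the canonical transcript. The strength of a peak is given here as the percentile of its fold enrichment, the deposited ratio of pull-down over input, within the list of its own library, where 0 is the weakest and 100 the strongest peak. In T24 replicates 1 to 5 the 3′UTR region stood at percentiles 72.9, 81.6, 52.3, 87.1 and 44.4, a mean of 67.7 ± 18.6 (SD, n = 5), with fold enrichments of 10.1, 10.5, 7.64, 12.8 and 6.29. Its deposited −log10 q-values were 62.4, 35.5, 22.5, 54.1 and 15.3. It thus stood between the middle and the upper part of the 5 T24 lists, and it stayed at 5 against 0 libraries with every threshold, list length and overlap rule tried.

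The 7 summits in this ELF3 region spread from 237 to 845 nt after the stop codon. Of these, 3 also lie in an exon of a long noncoding RNA gene on the same strand (ENSG00000249007), which the lists cannot separate from ELF3. They are the strongest summits of T24 replicates 1, 2 and 4, at percentiles 72.9, 81.6 and 87.1. Summits outside that gene stood at 59.4, 52.3, 46.6 and 44.4 in T24 replicates 2, 3, 4 and 5, and replicate 1 had none. The other ELF3 peaks were mostly weak. The exon 7 region (202012877 to 202013254) lay 404 nt before the stop codon with all 5 summits within 18 nt. Its percentiles were 8.83, 2.39, 1.97, 8.06 and 83.7, so that by fold enrichment replicate 5 was strong and the others were near the bottom of their lists. By −log10 q the region stood at percentiles 34.2, 2.82, 3.75, 42.1 and 84.6. With a −log10 q of at least 5 it was left in 3 T24 libraries, and with at least 10 in 1. The exon 8 region (202013836 to 202013991) was called in 3 T24 libraries at percentiles 8.99, 8.08 and 45.0, and the exon 2 region (202011048 to 202011231), 8.5 nt after the first base of the start codon, in 2 at percentiles 11.1 and 28.1.

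**Figure D2:**
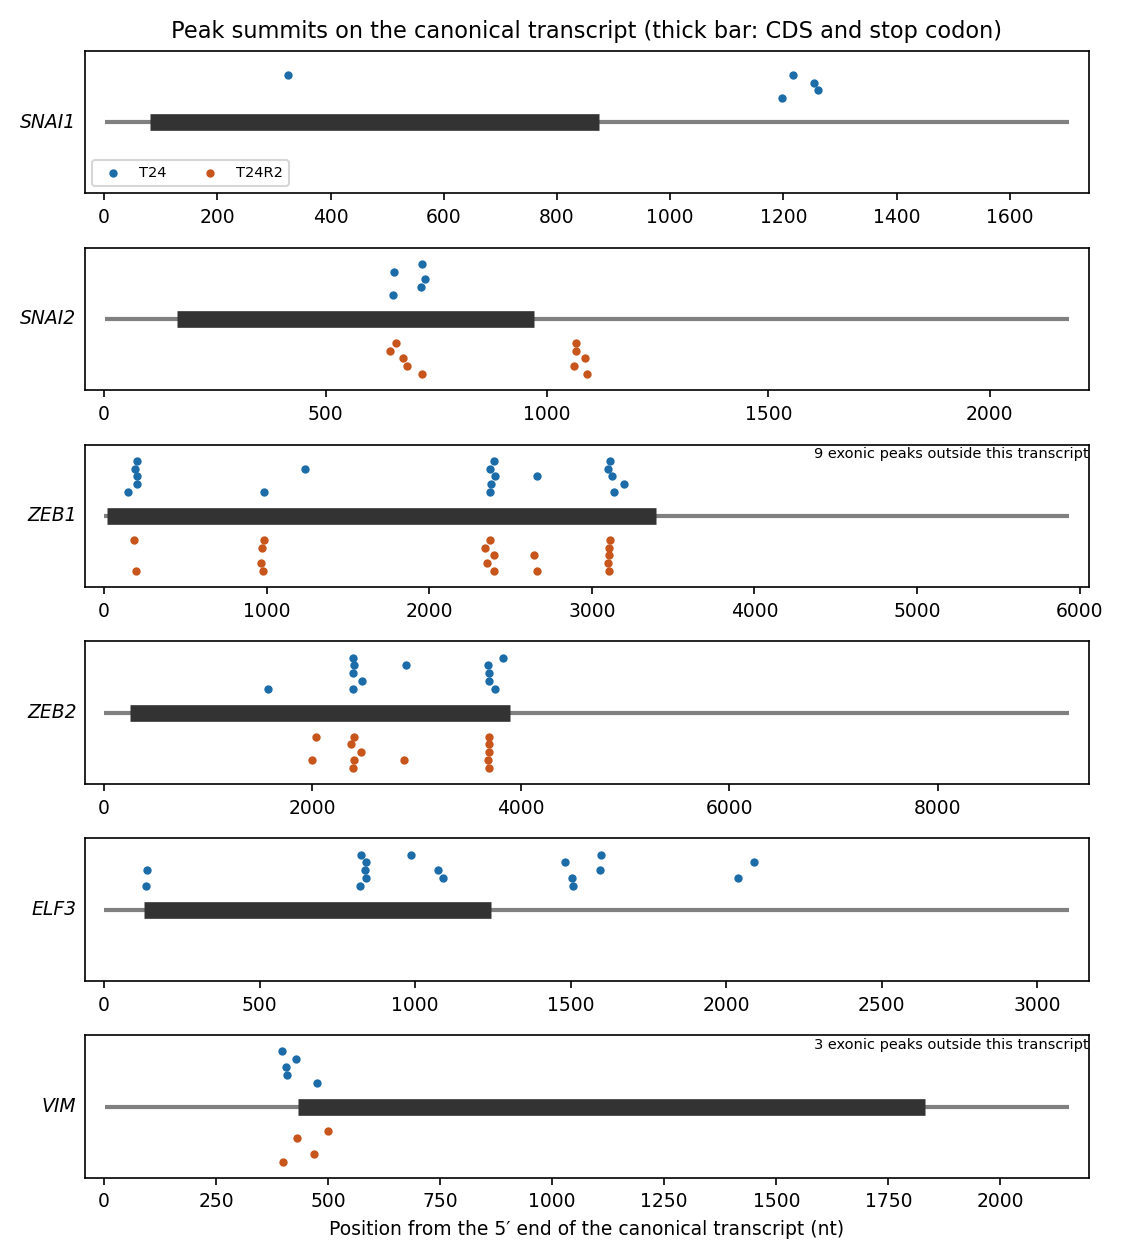
Peak summits of the 6 genes with exonic peaks, placed in nt from the 5′ end of the canonical transcript (thick bar: coding sequence with stop codon), with T24 libraries above and T24R2 libraries below the line. ELF3 has summits in T24 alone, while the summits of both lines coincide in the coding sequence of SNAI2, ZEB1 and ZEB2.

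The Snail family members differed between the lines in opposite directions before adjustment, with 3′UTR calls of SNAI1 in T24 and of SNAI2 in T24R2. SNAI1, a zinc finger repressor of E-cadherin on the plus strand of chromosome 20 (49982980 to 49988886, ENSG00000124216.4), had a 3′UTR region (49988333 to 49988514) with its median summit 360.5 nt after the stop codon. It stood at percentiles 37.6, 65.8, 69.3 and 76.8 in T24 replicates 1 to 4, a mean of 62.4 ± 17.1 (SD, n = 4), with fold enrichments of 6.39, 8.13, 9.50 and 10.2. T24 replicate 5 and the 5 T24R2 libraries had no peak there (Fisher's exact p = 0.0476, adjusted p = 0.517). With a −log10 q of at least 10 it was left in 2 T24 libraries. A peak in exon 2 (49983796 to 49984002) was called in T24 replicate 4 alone, at percentile 12.0.

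SNAI2, the Slug repressor, lies on the minus strand of chromosome 8 (48917598 to 48921740, ENSG00000019549.13) and had 1 peak in each T24 library and 2 in each T24R2 library. The additional T24R2 peak lay in the 3′UTR (48918569 to 48919102), with a median summit 94.0 nt after the stop codon and all 5 summits within 28 nt. Its percentiles in T24R2 replicates 1 to 5 were 45.0, 6.04, 49.6, 6.41 and 59.0, a mean of 33.2 ± 25.1 (SD, n = 5), and its fold enrichments were 6.21, 3.81, 6.36, 3.60 and 7.46. By fold enrichment, replicates 2 and 4 were therefore near the bottom of their lists and the other 3 near the middle. By −log10 q the 5 stood at percentiles 67.6, 28.7, 72.4, 32.0 and 79.8. The T24R2 lists are longer than those of T24. With every list cut to its 17203 peaks of highest −log10 q, the region was left in 4 libraries of T24R2 and 0 of T24 (Fisher's exact p = 0.0476). With a fold enrichment of at least 4 it was left in 3 and 0 (Fisher's exact p = 0.167).

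The other SNAI2 region, in coding exon 2 (48919904 to 48920522), lay 291 nt before the stop codon and was called in all 10 libraries. Its percentiles were 89.4, 80.9, 21.8, 76.1 and 9.82 in T24 and 87.5, 58.8, 57.2, 58.0 and 55.5 in T24R2. T24 spanned both ends of the scale and enclosed every T24R2 value. The difference, T24R2 minus T24, was 7.77 points (SE 16.1, 95% interval -25.7 to 41.2, limma adjusted p = 0.866), and its direction turned when T24 replicate 3 or 5 was left out. Since SNAI2 had this peak in every library, the transcript was present in both lines.

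**Figure D3:**
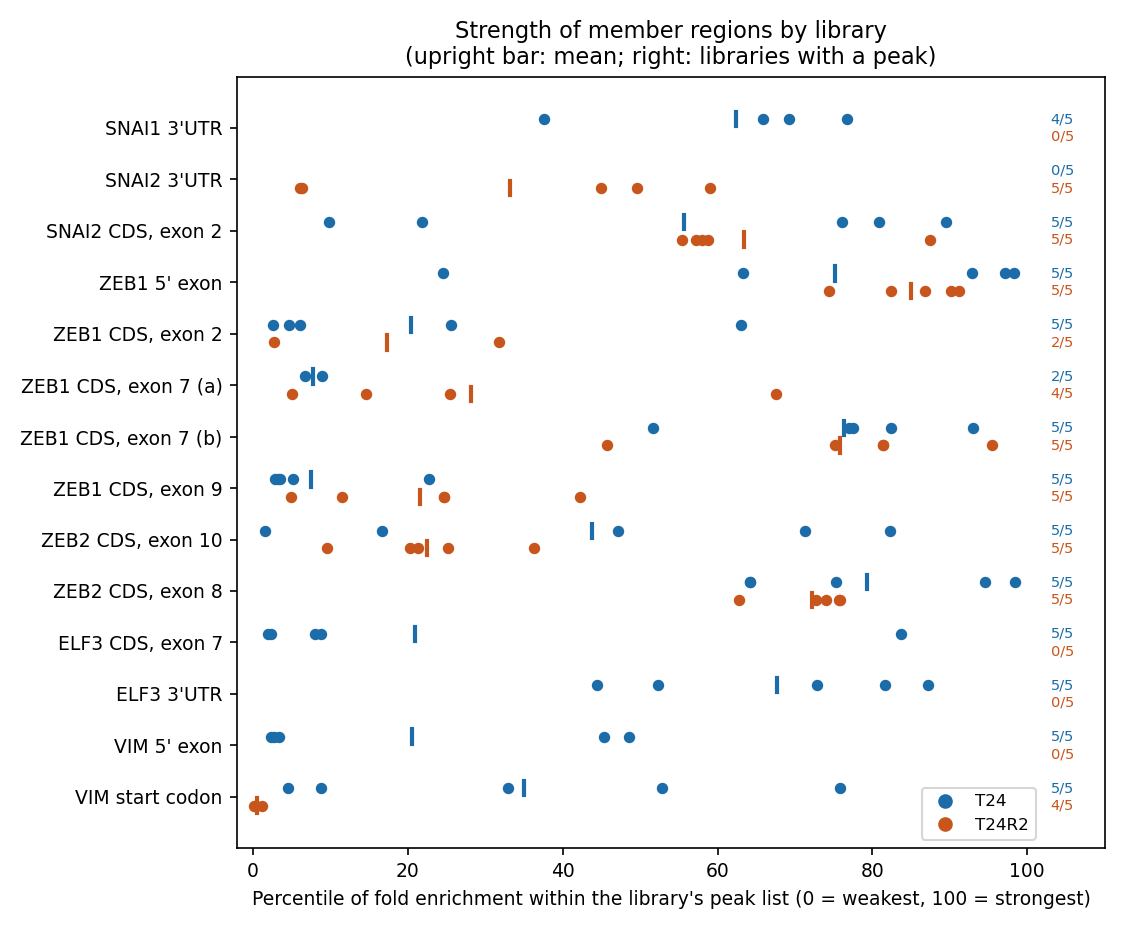
Percentile of fold enrichment within the peak list of the library (horizontal axis, 0 weakest and 100 strongest) for the regions called in at least 4 libraries of either line, with 1 point per library, the mean as an upright bar and the number of libraries with a peak at the right. The ELF3 3′UTR region lies between 44.4 and 87.1 in T24 and has no T24R2 point, and the VIM start-codon region lies at or below 1.20 in the 4 T24R2 libraries that have it.

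Of the 20 regions, 6 were called in all 10 libraries, and they lay in SNAI2, ZEB1 and ZEB2. Of all regions of the series 21.9% were called in all 10. None of the 6 passed an adjusted p of 0.05 in the limma fit of the percentile over 9577 shared regions, in which 0.104% of regions were higher and 0.0313% lower in T24R2. These 13 calls over the series were 0 with lists of equal length, with a replicate block and by the exact permutation test, 0 to 6 when a library was left out, and 157 by the percentile of −log10 q, while the set had 0 in each. At an unadjusted p under 0.05 the fit had 13.8% of shared regions and 0 of these 6. The median difference, T24R2 minus T24, was 3.63 points over the 6 regions and 4.84 points over all shared regions.

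ZEB1, a zinc finger and homeobox repressor of epithelial genes on the plus strand of chromosome 10 (31318495 to 31529814, ENSG00000148516.23), had the most exonic peaks of the set, 5, 4, 5, 4 and 4 in T24 and 5, 4, 3, 4 and 7 in T24R2. Its strongest coding region lay in exon 7 (31521191 to 31521922), 1020.5 nt before the stop codon, with all 10 summits within 57 nt. The percentiles were 77.0, 77.5, 92.9, 82.4 and 51.7 in T24 and 95.4, 81.4, 45.7, 81.4 and 75.1 in T24R2. The lines overlapped throughout, with means of 76.3 ± 15.2 and 75.8 ± 18.4 (SD, n = 5 each), and the difference was -0.513 points (SE 10.6, 95% interval -22.5 to 21.5, limma adjusted p = 0.987).

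The ZEB1 exon 9 region (31526707 to 31527218) lay 289 nt before the stop codon and was weak in both lines by fold enrichment. Its percentiles were 3.19, 22.8, 2.80, 5.20 and 3.46 in T24 and 4.87, 42.3, 24.7, 11.5 and 24.7 in T24R2. By −log10 q it ranked higher, at percentiles 56.1, 76.6, 34.3, 63.4 and 35.4 in T24 and 60.8, 94.9, 80.9, 77.9 and 76.8 in T24R2. The difference of 14.1 points by fold enrichment (SE 7.22, 95% interval -0.902 to 29.2) had an unadjusted limma p of 0.0640 and an adjusted p of 0.392. It was 8.97 points without T24R2 replicate 2, 3.91 with lists of equal length and 3.97 by the percentile among shared regions alone. In the other direction it was 18.3 points without T24R2 replicate 1 and 25.1 by the percentile of −log10 q (limma adjusted p = 0.176). By fold enrichment the interval reached 0 and the lines overlapped, replicate 2 being highest in each.

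Other ZEB1 peaks recurred in part of the libraries. The exon 2 region (31460973 to 31461202), 174 nt after the first base of the start codon, was called in 5 libraries of T24 and 2 of T24R2 (Fisher's exact p = 0.167), at percentiles 63.0, 6.08, 2.58, 25.6 and 4.63 in T24 and 2.78 and 31.8 in T24R2 replicates 1 and 5. An upstream exon 7 region (31520160 to 31520591) was called in 2 libraries of T24 and 4 of T24R2 (Fisher's exact p = 0.524) and an exon 8 region (31523889 to 31523992) in 1 and 2. A region at the 5′ end (31317888 to 31319087) was called in all 10 libraries, with an exonic ZEB1 summit in 4 of each line. All 14 of its summits lie in an exon of the antisense gene ZEB1-AS1, and 9 of them also in a ZEB1 exon. Without strand these 9 can belong to either gene. The strongest peaks of the region stood at percentiles 24.5, 97.1, 92.9, 98.2 and 63.3 in T24 and 91.2, 82.3, 74.4, 86.8 and 90.1 in T24R2. In T24 replicates 2, 4 and 5 and T24R2 replicate 3 the strongest peak had its summit outside ZEB1 exons. The difference was 9.76 points (SE 11.4, 95% interval -14.0 to 33.5, limma adjusted p = 0.741). T24 replicate 1 was the lowest of the 10, and without it the difference was -2.92 points.

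ZEB2, the related repressor on the minus strand of chromosome 2 (144364364 to 144521057, ENSG00000169554.23), had 3, 2, 2, 3 and 2 exonic peaks in T24 and 3, 2, 2, 4 and 2 in T24R2. The exon 8 region (144398405 to 144399189), 1495.5 nt before the stop codon, was strong in every library. Its percentiles were 98.5, 75.3, 64.2, 64.1 and 94.5 in T24 and 74.0, 75.8, 62.7, 72.7 and 75.7 in T24R2, a difference of -7.14 points (SE 9.62, 95% interval -27.2 to 12.9, limma adjusted p = 0.777). That difference was -2.36 points without T24 replicate 1, -3.35 without T24 replicate 5, and -16.4 with lists of equal length. The last coding exon, exon 10, held a region (144389294 to 144390139) 198 nt before the stop codon. Here the percentiles were 16.7, 1.58, 47.2, 71.2 and 82.3 in T24 and 9.51, 36.3, 20.3, 21.3 and 25.2 in T24R2. The T24 libraries ran from the bottom to the upper part of their lists, and the difference of -21.3 points (SE 13.6, 95% interval -49.7 to 7.15, limma adjusted p = 0.501) was within their spread. Without T24 replicate 5 it was -11.6 points and without T24 replicate 2 -31.8. By the percentile of −log10 q in place of fold enrichment, both ZEB2 differences changed sign, to 1.17 for exon 8 and 7.64 for exon 10. A pair of minor exon 8 regions was called in 2 T24R2 libraries (144399318 to 144399588) and in 1 T24 library (144399822 to 144400141).

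VIM, on the plus strand of chromosome 10 (17228241 to 17237593, ENSG00000026025.16), ranked lower in the T24R2 lists at its start-codon peak, a difference that did not hold after adjustment. That region (17229233 to 17229718) had its median summit 3.00 nt before the start codon and was called in 5 T24 and 4 T24R2 libraries. Its percentiles were 4.54, 8.82, 75.8, 32.9 and 52.9 in T24, and 0.104, 0.256, 0.441 and 1.20 in T24R2 replicates 1, 2, 4 and 5. Every T24R2 value lay below every T24 value, with means of 0.501 ± 0.487 (SD, n = 4) and 35.0 ± 30.0 (SD, n = 5). The fold enrichments were 3.25, 3.74, 10.5, 5.57 and 6.85 in T24 and 1.81, 2.18, 2.25 and 2.59 in T24R2. These ranks at the bottom of the T24R2 lists are by fold enrichment. By −log10 q the peaks stood at percentiles 70.7, 76.9, 99.3, 91.6 and 97.4 in T24 and 9.57, 38.4, 44.5 and 54.8 in T24R2.

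Because T24R2 replicate 3 had no VIM peak there, the region was outside the fit over regions shared by all libraries. In a fit over the 11952 regions called in at least 4 libraries of each line, chosen after the values were seen, the difference was -34.5 points (SE 11.5, 95% interval -58.4 to -10.5). Its unadjusted limma p was 0.00715 and its adjusted p 0.185. In that fit 0.0837% of regions were lower in T24R2 with an adjusted p under 0.05, and 3.29% with an unadjusted p under 0.05. All 9 exonic summits of the region also lie in an exon of the antisense gene VIM-AS1.

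A second VIM region upstream (17228466 to 17229065) was called in all 5 T24 and no T24R2 libraries, at percentiles 45.4, 2.33, 2.77, 48.6 and 3.44. It rests on an exon of a non-canonical VIM transcript, only 3 of its T24 libraries had a summit in a VIM exon, and it also lies in the body of VIM-AS1. Counting summits in VIM exons alone, it was 3 against 0 libraries (Fisher's exact p = 0.167). No peak was called in the VIM coding sequence past the start codon region or in its 3′UTR in either line.

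TWIST1 (chromosome 7) and TWIST2 (chromosome 2), basic helix-loop-helix factors, and the epithelial factors GRHL2 (chromosome 8) and OVOL1 (chromosome 11) had 0 exonic peaks. TWIST2 had an intronic region (238894994 to 238895227) in 2 T24 and 3 T24R2 libraries, which is not counted among the 20. ZEB1 had 8 intronic regions besides its exonic ones. The most uneven of them (31474439 to 31475034) was called in 1 T24 and 5 T24R2 libraries.

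By position, the exonic peaks of the set lay mostly in coding sequence. Of the 119, 71.4% were in CDS, 13.4% in the 3′UTR, 5.04% in the 5′UTR and 10.1% in exons outside the canonical transcript. Of all 154141 exonic peaks of protein-coding genes, 54.9% were in CDS, 29.0% in the 3′UTR, 6.48% in the 5′UTR and 9.70% in other exons. Peaks within 200 nt of a stop codon made up 13.4% of the set and 21.2% of all. These shares are descriptions, since the peaks of 1 region in 10 libraries are not independent, and the set holds only 20 regions.

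DRACH was present on the sense strand within 50 nt of the summit in 94.1% of 101 peaks of the set that could be assigned to 1 strand, and in 90.5% of all 165758 such exonic peaks. On the opposite strand of these windows it was present in 89.1% and 71.6%. In windows of 25 nt on each side the sense shares were 83.2% and 71.7% and the antisense shares 47.5% and 46.5%. The shorter form GGAC was found in 46.5% of the peaks of the set and 47.9% of all on the sense strand, against 26.7% and 24.4% on the antisense strand.

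A list of 70 further genes of EMT was read alongside. Of these, 44 had an exonic peak, with 120 regions, of which 2 (1.67%) were T24-only and 5 (4.17%) T24R2-only, beside 1.05% and 3.02% of all regions. Genes of the epithelial side had a peak in 9 of 22 cases and genes of the mesenchymal side in 10 of 18. Among the other transcription factors and cofactors 24 of 28 had a peak, and none of their 65 regions was line-specific. An adjusted p under 0.05 for presence was reached by none of the 120 regions, and 12 (2 with more T24 and 10 with more T24R2 calls) had an unadjusted p under 0.05, beside 2.09% and 7.11% of all regions.

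The T24-only regions of the list lay in a gene of the epithelial side and in a host of a microRNA that restrains EMT. ESRP2, an epithelial splicing regulator, had a 3′UTR region (chromosome 16, 68229273 to 68229846) in all 5 T24 and no T24R2 libraries. It was among the strongest peaks of the T24 lists, at percentiles 95.3, 92.9, 97.6, 98.1 and 87.0 and fold enrichments between 11.4 and 21.0. MIR205HG, the host transcript of miR-205, which targets ZEB1 and ZEB2, had a T24-only exonic region (chromosome 1, 209430407 to 209430784). The region rests mainly on an exon of a non-canonical transcript. Its percentiles in T24 replicates 1 to 5 were 4.27, 10.0, 17.2, 57.9 and 15.5, and its lowest −log10 q over these libraries was 3.20.

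On the mesenchymal side, all 5 T24R2-only regions lay in 1 gene, TNC, which encodes the matrix protein tenascin-C and had 15 regions in all. They are therefore not 5 separate genes. Their mean percentiles in T24R2 were 2.22, 5.51, 17.0, 43.3 and 17.5, so most were in the lower part of the lists. The region with the mean of 43.3 also has a summit in an exon of the gene DELEC1. With a −log10 q of at least 5 the list had 3 T24R2-only regions, and with lists of equal length it had 1.

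**Figure D4:**
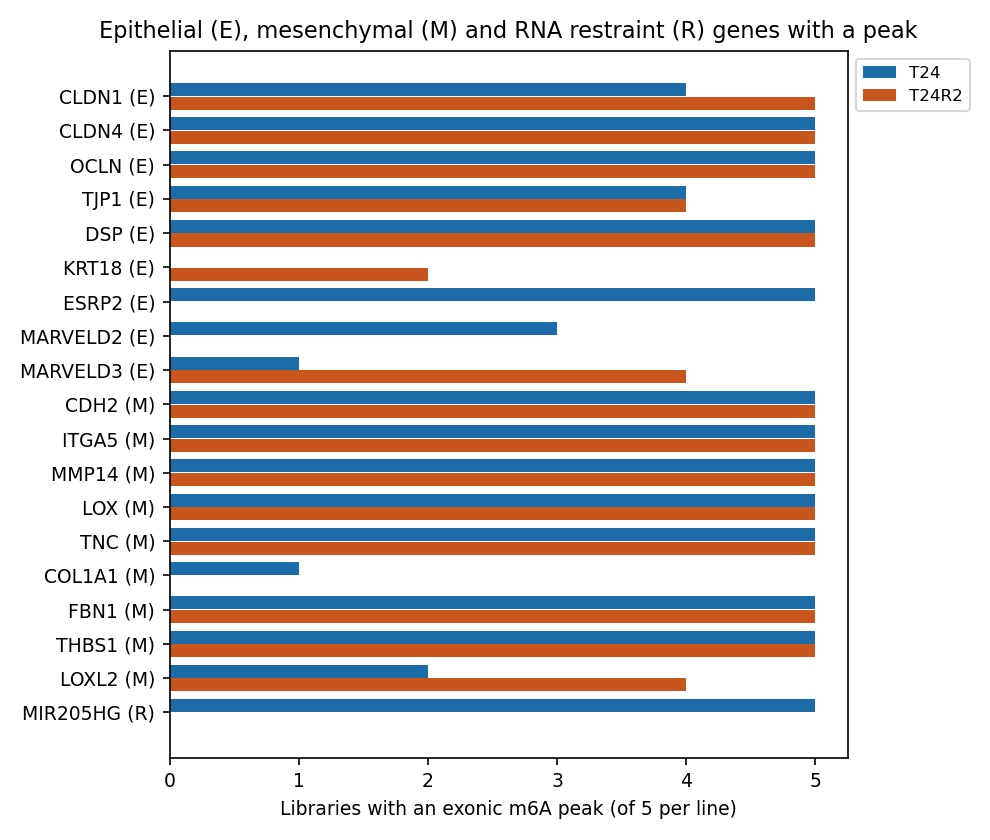
Number of libraries, of 5 per line, with an exonic m6A peak in each gene of the epithelial (E), mesenchymal (M) and RNA restraint (R) parts of the further list, for the genes with a peak that are reported here. ESRP2 and MIR205HG have peaks in 5 T24 and 0 T24R2 libraries, while CDH2 and TNC have peaks in all 5 of each line.

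Peaks in marker genes were mixed in both lines. Among luminal urothelial markers GATA3, like ELF3, had an exonic peak in 5 T24 and 0 T24R2 libraries, FOXA1 in all 10, PPARG in 1 and 2 and UPK1A in 1 and 1, and UPK1B, UPK2, UPK3A, KRT20 and GRHL3 had none. The epithelial markers CDH1, EPCAM and ESRP1 and the basal markers KRT5, KRT6A, KRT14 and TP63 had no peak, while the basal markers CD44 and EGFR had one in all 10 libraries. Of the mesenchymal markers outside the set, the cadherin CDH2 had a peak in all 10 and the matrix protein gene FN1 in none. These lists show where m6A peaks were called and do not measure expression.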

How the data were processed

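MeRIP-seq peak lists of 10 pull-down libraries (5 T24, 5 T24R2) were analysed; the 10 input libraries enter only as the background of peak calling. Per the submitters' processing notes and the methods, the authors aligned reads with STAR 2.7.0 to hg38, filtered them with SAMtools 1.10 and called peaks per library with MACS2 3.0.0a6. The deposited fold enrichment is a ratio of pull-down over input. Each peak also has a deposited −log10 p-value, −log10 q-value and score, of which the p-value and the score were not tested, and the lowest −log10 q was 2.00. The library kit is stranded, but the lists carry no strand. Counts and depth were not analysed here, so intervals that need them are not given.

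The members and gene lists were chosen with earlier results of these data known. The genes described are all 10 members and, from the list of 70, those with a line-specific region or a shared region past an adjusted p of 0.05, of which 1 gene is not reported here; marker genes are named by their presence alone, and the bar plot shows other genes of the list. Summits were placed on GENCODE 44 exons (the authors used release 39) and on Ensembl canonical transcripts. A library had a region when a peak overlapped it by at least 1 bp. Fisher's exact test (two-sided, Benjamini-Hochberg adjustment over all regions or genes) compared presence. Percentiles were fitted with limma 3.58.1 (R 4.3.3, intensity trend, strongest peak per region) over all regions called in 10 libraries. The scripts were tested on simulated data. Python 3.11.15, pandas 2.3.3, scipy 1.17.1, pysam 0.24.0 and bedtools 2.31.1 were used. Sequences are from hg38, and none of chromosome 8 is printed. The alternatives were limits on −log10 q (5, 10) and fold (4), lists cut to equal length by −log10 q, and a cover of 50%. Others were exonic summits alone, canonical exons, other measures of strength, omission of each library in turn and a replicate block.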

Additional observations from a re-analysis of the deposited data

Results flagged for a closer look

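In 18 groups of 5 libraries (each region of the set called in all 5 libraries of a line, for that line), 4 had a library far from the other 4, with a gap to the nearest above 0.71 of the whole range. For normally distributed values such a gap arises in about 1 of 20 groups. Percentiles are bounded and some groups lie near the bottom of the scale, and the rate for such values was not tested.

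For the ELF3 exon 7 region T24 replicate 5 stood at percentile 83.7 and the other T24 libraries at 1.97 to 8.83. For the ZEB1 exon 9 region T24 replicate 2 stood at 22.8 and the others at 2.80 to 5.20. For the SNAI2 coding region T24R2 replicate 1 stood at 87.5 and the others at 55.5 to 58.8. For the ZEB2 exon 8 region T24R2 replicate 3 stood at 62.7, below the others at 72.7 to 75.8. The 4 regions had their distant value in 4 different libraries.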

How the results depend on the processing

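Presence tests were limited by 5 against 5 libraries, strength by unknown depth, and overlapping genes by the missing strand. Where values moved, the cause was not tested beyond what the setting itself removes. Of the recomputed values for single regions, 163 kept their direction and side of the threshold and 17 no longer passed 0.05. Of the counts and shares, 121 stayed within 1.5 times of the value reported and 25 moved further (for the DRACH share, by more than its SD over libraries). The 17 and the 25 include results of the exact McNemar test, which could not pass 0.05 because its smallest p here is 0.0625. The 3 T24-only regions of the set became 1, the ELF3 3′UTR region, at a −log10 q of at least 5 or 10 or a fold of at least 4. The T24R2-only SNAI2 region was no longer called in all 5 T24R2 libraries (0 such regions) at a −log10 q of at least 10, a fold of at least 4, equal list length or a cover of 50%. The 5 regions with an unadjusted p under 0.05 became 1 at a −log10 q of at least 10, 2 at a fold of at least 4 and 2 at a cover of 50%. For the 70 genes, T24-only regions fell from 2 to 1 in both −log10 q settings, the fold limit and equal list length. Their T24R2-only regions fell from 5 to 3 (−log10 q 5), 2 (−log10 q 10), 2 (fold) and 1 (equal length), and regions with an unadjusted p under 0.05 from 12 to 6 (−log10 q 10) and 6 (fold). The DRACH share of 94.1% was 83.2% in the short window and 46.5% for GGAC.

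Leaving out each library gave 3 to 4 T24-only regions, 1 T24R2-only region and 5 to 6 with an unadjusted p under 0.05 in the set. ELF3 was the 1 T24-only gene, and SNAI1 made it 2 without T24 replicate 5 (range 1 to 2).

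Replicate numbers did not pair the libraries: the correlations of same-numbered deviations were 0.004, -0.03, 0.047, -0.01 and 0.111. With the replicate block, 0 regions of the set and 0 of the 70 genes had an unadjusted p under 0.05 (exact McNemar test, whose smallest p here is 0.0625).

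Uncalled differences in percentile changed sign in 12 cases. The log2 fold gave -0.0154 for the SNAI2 coding region and -0.0779 for the ZEB1 5′ region, and percentiles among shared regions gave -5.25 for SNAI2. By −log10 q the ZEB1 exon 7 region gave 1.15, ZEB2 exon 10 7.64 and ZEB2 exon 8 1.17. Leaving out libraries gave -3.67 to 16.2 for SNAI2 (-0.679 without T24 replicate 3), -2.92 to 15.5 for the ZEB1 5′ region and -6.66 to 7.01 for ZEB1 exon 7 (3.64 without T24 replicate 3, 1.01 without T24 replicate 4). The fit over regions called in at least 4 libraries of each line was chosen after seeing the data.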
